A study of Mus musculus with 4 samples.

Results

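The genes described here are 9 members of the interleukin-1 (IL-1) family and its receptors: the ligands Il33, Il1a, Il1b and Il18, the receptor antagonist Il1rn, and the receptor genes Il1rl1, Il1r1, Il1r2 and Il1rap. They were taken by name, as every probe whose gene name or RefSeq match is one of these symbols. All 9 were found, on 18 probes, among 26793 gene names and 41146 probes with a value. RNA was measured in IMS/N cells, hepatic stellate cells of normal 129/Sv mice that were immortalized by infection with SV40 virus, so all cultures come from 1 line. The cells were cultured with the saturated fatty acid palmitic acid (PA) and ADSC medium, with PA alone, with ADSC medium alone, or with neither (control). ADSC medium had been held on stem cells grown from the inguinal subcutaneous fat of male C57BL/6J mice aged 8 to 10 weeks. The sources used here do not give the PA dose or exposure, nor the vehicle or base medium of the other cultures, so products of the stem cells and the base medium cannot be told apart. Each of the 4 conditions has 1 one-colour array and no replicate, so each difference describes a pair of arrays and no p-value is given.

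IL-1 family cytokines signal through receptors that pair with an accessory chain, shared by IL-1 and IL-33, and recruit the adaptor MyD88, which leads to NF-kB and MAP kinase activity. IL-33 is a nuclear cytokine released by damaged cells, and its receptor ST2, encoded by Il1rl1, also occurs as a soluble form that binds IL-33 without signalling. In the liver, IL-1 is made mostly by macrophages, and stellate cells are among the cells that carry its receptor and that express IL-33 during injury.

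Levels are log2 intensities after quantile normalization of the 4 arrays, and a difference without the word fold is in log2 units. Well above background means that the scanner software set that flag on more than 50% of a probe's spots. Members were counted as higher or lower from a 1.5-fold difference of their most intense probe. The measurement spread was taken from probes printed on 10 spots per array, wherever such a probe was well above background on an array with at least 8 spots left after outliers, which gave 724 pairs of a probe and an array from 188 of the 245 such probes. The SD of a difference between single spots was 0.404 at log2 levels under 3, 0.230 at 3 to 5, 0.123 at 5 to 7, 0.079 at 7 to 9 and 0.067 at 9 to 11. The SD given beside a probe is that at its mean level over the arrays unless stated, and its dimmer arrays can have a larger one. It leaves out the variation between cultures, and the number of arrays limits the precision.

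All 4 arrays lay on 1 slide and were read in 1 scan, with 67.5% to 70% of probes well above background and no saturated spot. Of 12 stellate cell markers, 8 were well above background on every array, among them Acta2, Pdgfrb, Col1a1 and Lhx2, whereas Lrat, Reln, Hgf and Hand2 were not on any. Of 11 macrophage markers 5 or 6 were well above background. Ptprc, Adgre1, Clec4f, Tyrobp and Laptm5 were not on any array. The list's summed intensity was 1310 with PA and ADSC medium, 669 with PA, 1150 with ADSC medium and 755 in control. Within that sum Cd14, which encodes a co-receptor for lipopolysaccharide, stood at 10.11, 8.80, 9.81 and 9.07 in that order. Of 8 adipocyte or adipose stromal markers 4 were well above background, with summed intensities of 14100, 9460, 12600 and 9500 in the same order, while Adipoq, Plin1, Lep and Cfd were not on any array. Both sums were higher on the arrays with ADSC medium, as were several members below, but not every marker was. Cd14 made up most of the macrophage sum. When the medium was added to PA, Csf1r differed by 0.51, Marco by 0.05, Cd68 by -0.12 and Fcer1g by -0.20, and Itgam was no longer well above background. In the adipose list Fabp4 differed with the medium by 1.04 with PA and 0.61 without it, Cd34 by 0.50 and 0.37, Pi16 by 0.0 and -0.06, and Pparg by -0.68 and -0.45. The part of either list in the members' differences was not tested. Of the 9 markers of mast cells and type 2 lymphoid cells, which are known for high Il1rl1, Kit, Cpa3, Mcpt4, Tpsb2 and Il7r were not well above background on any array, and Cma1, Fcer1a, Ms4a2 and Gata3 were on all. Ms4a2 was at 3.55 with PA and ADSC medium, 2.61 with PA, 2.88 with ADSC medium and 3.08 in control, and Cma1 at 4.29, 3.99, 4.17 and 3.65 in the same order. Ms4a2 thus differed with the medium by 0.94 with PA and -0.20 without it, and Cma1 by 0.29 and 0.52. Fcer1a differed by -0.17 and -0.06, and Gata3 by -0.19 and -0.18, in the same order. The part of these markers in the Il1rl1 differences was not tested. The sum of that list, most of it Gata3 at levels of 10.11 to 10.35, was 1150 with PA and ADSC medium, 1310 with PA, 1210 with ADSC medium and 1360 in control. Of 7 endothelial markers 3 were well above background on each array (sums of 423, 505, 316 and 389 in that order), and of 7 epithelial markers 5 were (477, 529, 625 and 620). In bulk RNA, fewer cells of a type and less RNA per cell cannot be told apart.

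ADSC medium was compared without and with PA to ask what it did to the family's transcripts. Il33, Il1rn, Il1rl1 and Il1r1 were higher with the medium both without and with PA, while the most intense probes of Il1r2, Il1rap and Il18 differed by less than 1.5-fold each time. Without PA, 4 of the 7 members compared reached 1.5-fold above control with ADSC medium and 0 were that far below it, where 2.3% of 18266 genes were that much higher and 1.28% that much lower. Of these, 2 reached 2-fold, as did 0.531% of genes. In cultures given PA, 4 of 7 reached 1.5-fold above PA alone when ADSC medium was added and 0 were that far below, where 5.25% of 18770 genes were higher and 3.72% lower. Of these, 3 reached 2-fold, as did 1.75% of genes. The median difference of the 7 was 0.68 without PA and 0.93 with PA, against -0.008 and -0.017 over all genes measured on both arrays of the pair. PA alone moved none of the 7 by 1.5-fold against control, either way, on their most intense probes. Among 18572 genes 2.86% were that much higher and 3.21% lower, and 1.07% were 2-fold higher. At those shares, 0 of 7 does not set the members apart from all genes. Of the less intense probes, 1 of Il1r2 was 1.5-fold lower with PA and 1 of Il1rap at least 1.65-fold higher.

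**Figure D1:**
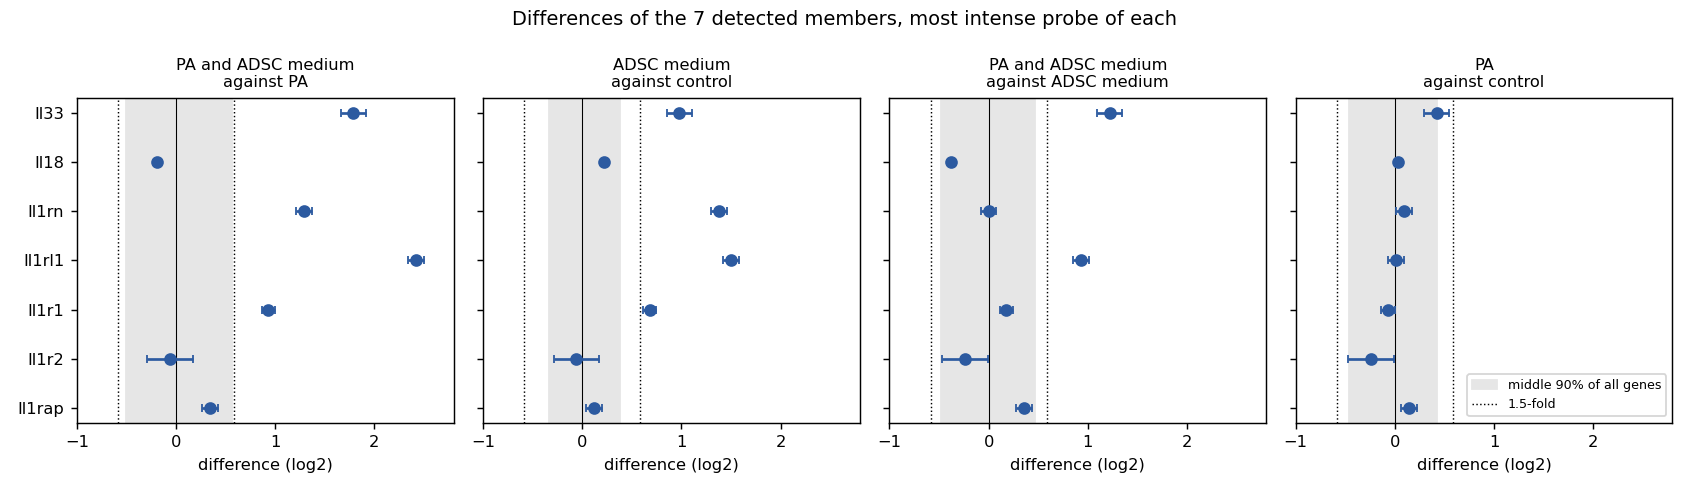
Differences on the log2 scale (x axis) of the 7 members well above background on all 4 arrays (y axis), each by its most intense probe, in 4 comparisons of a pair of arrays. Horizontal lines are 1 SD of a spot difference at the probe's mean level, the grey band holds the middle 90% of all genes measured on both arrays, and dotted lines mark 1.5-fold. For Il18 the SD is that for means of 10 spots. Il33, Il1rn, Il1rl1 and Il1r1 lie beyond the dotted line in both comparisons of ADSC medium, and none does in PA against control.

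Il33, the alarmin ligand of ST2, was at 6.40 with PA and ADSC medium, 4.62 with PA, 5.18 with ADSC medium and 4.20 in control. The level was highest with both treatments, and each array with ADSC medium stood above both arrays without it. Its 1 probe lies on the plus strand of chromosome 19, 30034990 to 30035049 (mm9, as for all probe positions below), and its first 30 of 60 bases show what was measured.
Il33 probe: tcgtacggctgtaacaggtataattgtttc
ADSC medium went with a 1.98-fold higher Il33 level without PA and a 3.45-fold higher level with PA, differences of 0.98 and 1.79. The difference with the medium was thus larger by 0.80 when PA was present, which was not tested. The SD of a spot difference is 0.123 at levels of 5 to 7 and 0.230 at 3 to 5, where the arrays without the medium lie, and a difference of 2 differences has a larger spread. PA went with 0.42 more Il33 without the medium (1.34-fold) and 1.22 more with it (2.34-fold). Il33 is the 1 member whose probe stands in the authors' deposited list of 1580 probes higher with PA than in control, and no member probe is in their deposited list of 920 probes higher with PA than with PA and ADSC medium. The members have 18 probes and the array 41174. Another background correction, normexp, was used with an offset of 50 added to each intensity, which narrows folds most at low intensities. With it the difference with ADSC medium alone was 0.29 and no longer reached 1.5-fold. The others were 0.79 (medium with PA present), 0.11 (PA) and 0.61 (PA with medium present).

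Il1a and Il1b, the ligands of the type I receptor, were not well above background on any array. Il1b was printed on 10 spots per array, and none of its spots was flagged well above background. Its median processed intensity was 1.01 with PA and ADSC medium, 0.969 with PA, 0.971 with ADSC medium and 1.02 in control. Both Il1a probes were between -0.06 and 0.16 on the normalized log2 scale, under the lowest levels well above background, which ran from 2.07 to 2.43 over the arrays. No difference is given for either gene, and this sets a bound at array sensitivity and does not show that the transcripts are absent.

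Il18, a ligand that is stored as a precursor and cut by caspase 1, was well above background on every spot of its probe. Its level was 7.57 with PA and ADSC medium, 7.76 with PA, 7.95 with ADSC medium and 7.73 in control, a range of 0.38. The 8 to 10 spots of an array differed by an SD of at most 0.056 on the log2 scale, so the probe was measured with less error than the single-spot members. ADSC medium went with 0.22 more Il18 without PA and -0.19 with PA, and PA with 0.03 more without the medium and -0.38 with it. Before normalization the median processed intensity of the Il18 spots was 190 with PA and ADSC medium, 252 with PA, 226 with ADSC medium and 196 in control. The array highest for Il18 was therefore that of PA before normalization and that of ADSC medium after it. The 75th percentile of all spots was 542, 622, 497 and 495 in the same order, so the PA array was the brightest as a whole. With 75th percentile scaling in place of quantile normalization, Il18 differed from control by 0.01 with PA and 0.21 with ADSC medium. This probe crosses an intron (chromosome 9, 50387470 to 50389598) and is shown whole because its replicate spots carry the measurement of precision.
Il18 probe: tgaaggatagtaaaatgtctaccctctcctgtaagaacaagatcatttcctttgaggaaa

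**Figure D2:**
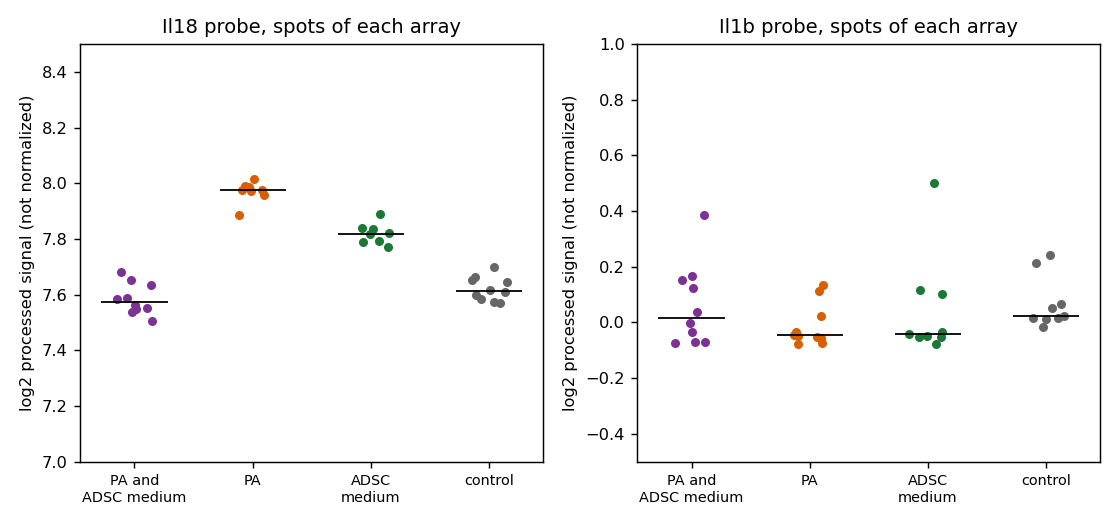
Log2 processed signal before normalization between arrays (y axis) of each spot of the Il18 probe (left) and the Il1b probe (right) on the 4 arrays (x axis), with outlier spots left out. Lines are medians. The Il18 spots of an array lie close together, with medians of 190 to 252 in intensity, and the Il1b spots have median intensities of 0.969 to 1.02, close to 0 on the log2 axis.

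Il1rn encodes the IL-1 receptor antagonist, which occupies the type I receptor without signalling. Its main probe was at 7.88 with PA and ADSC medium, 6.60 with PA, 7.89 with ADSC medium and 6.51 in control. The arrays with the medium were level with each other, as were those without it. The medium went with 2.60-fold more Il1rn without PA and 2.44-fold more with PA (1.38 and 1.29), and PA with 0.09 without the medium and 0.00 with it. The second Il1rn probe, which crosses an intron, was well above background only on the arrays with the medium (2.83 and 2.63 with and without PA), so it gives lower bounds of at least 1.69-fold with PA and at least 1.15-fold without it. Both probes match the same RefSeq transcripts, so they do not separate the secreted from the intracellular forms.
Il1rn main probe (chromosome 2, 24206125 to 24206184, first 30 of 60 bases): tttcttgaccattcattttatcacttctaa
Il1rn second probe (chromosome 2, 24203035 to 24204055): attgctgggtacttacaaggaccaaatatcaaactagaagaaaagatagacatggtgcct

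Il1rl1 encodes ST2, and it had the largest difference with ADSC medium among the members, both without and with PA. Its 3 probes separate its forms. One matches NM_010743, the soluble form, one NM_001025602, the transmembrane form that signals, and the third lies in exons shared by both.
Soluble form probe (chromosome 1, 40504769 to 40504828, first 30 of 60 bases): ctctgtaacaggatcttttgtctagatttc
Transmembrane form probe (chromosome 1, 40521952 to 40522011, first 30 of 60 bases): tgaccttatttgcttaccagttacaggtaa
Shared probe (chromosome 1, 40498342 to 40499204, across an intron): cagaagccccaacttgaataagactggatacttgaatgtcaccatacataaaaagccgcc
The soluble form probe was at 9.72 with PA and ADSC medium, 7.30 with PA, 8.78 with ADSC medium and 7.29 in control. The transmembrane form probe was at 8.27, 5.85, 7.60 and 6.19 in the same order. On both probes the arrays with the medium stood above those without it, and the array with both treatments was highest. The shared probe was at 4.75 with PA and ADSC medium and 4.0 with ADSC medium, and was not well above background on the other arrays.

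With ADSC medium and no PA, the soluble form probe was 2.82-fold higher, the transmembrane form probe 2.65-fold and the shared probe at least 2.98-fold. With PA present the medium went with 5.34-fold, 5.33-fold and at least 6.43-fold higher levels. In log2 units the soluble form probe was thus 1.5 and the transmembrane form probe 1.41 higher without PA, and they were 2.42 and 2.41 higher with it. Both gaps between the forms are smaller than the SD of a spot difference of 0.123 for the transmembrane form probe. The difference with the medium was larger with PA than without it by 0.92 on the soluble form probe and by 1.01 on the transmembrane form probe. PA without the medium left the soluble form probe at a difference of 0.01 and the transmembrane form probe at -0.34, and PA with the medium at 0.93 and 0.67. Both probes thus stood above the diagonal of equal differences in the plot of the medium's difference without and with PA, while the shared probe gives only lower bounds on both axes.

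**Figure D3:**
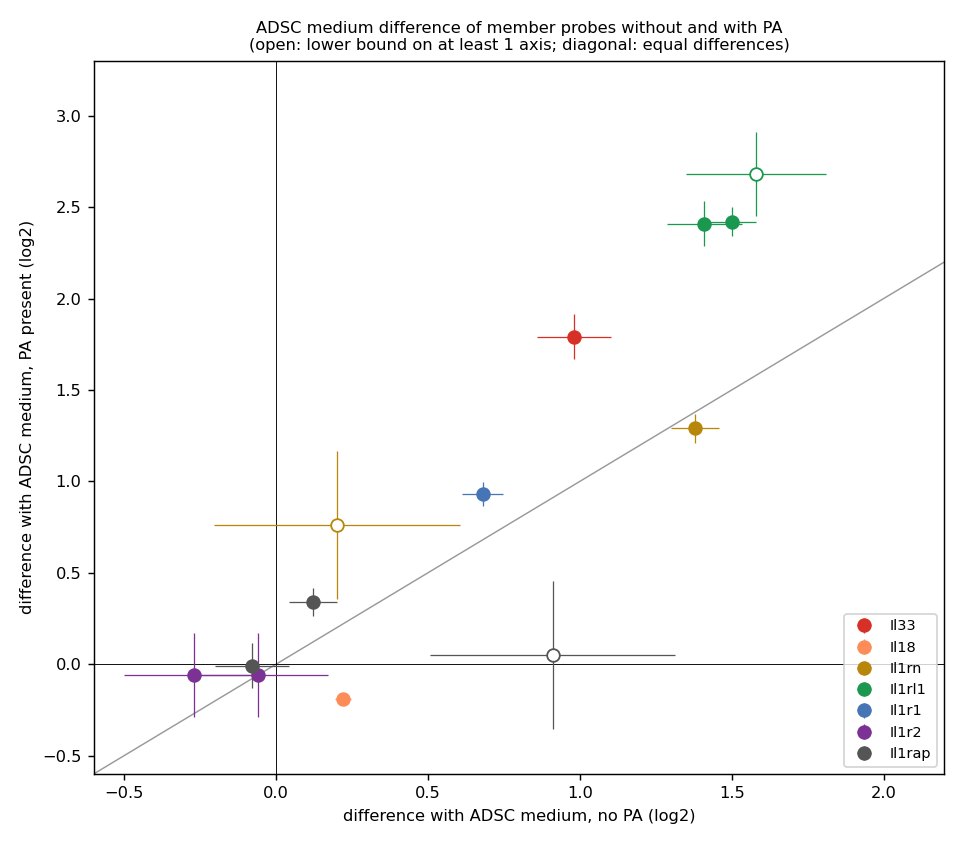
Difference with ADSC medium on the log2 scale for each member probe that could be compared, without PA (x axis, ADSC medium against control) and with PA (y axis, PA and ADSC medium against PA). The comparisons share no array, lines are 1 SD of a spot difference at the probe's mean level, and open points are lower bounds. For Il18 the SD is that for means of 10 spots. The filled Il1rl1 points and Il33 lie above the diagonal, and the main Il1rn probe, at 1.38 and 1.29, lies close to it.

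Il1r1 encodes the signalling type I receptor for IL-1. Its 1 probe lies on chromosome 1, 40372667 to 40372726, and was at 9.70 with PA and ADSC medium, 8.76 with PA, 9.51 with ADSC medium and 8.83 in control. The medium went with a 1.91-fold higher level with PA and a 1.60-fold higher level without it (0.93 and 0.68). The 2 arrays with the medium stood above the 2 without it, and PA went with -0.07 without the medium and 0.18 with it. Il1r2 encodes a decoy receptor that binds IL-1 without signalling. Its main probe (chromosome 1, 40180014 to 40180073) was at 4.37 with PA and ADSC medium, 4.43 with PA, 4.61 with ADSC medium and 4.67 in control. All of its differences, from -0.30 to -0.06, lie near or within the SD of a spot difference of 0.230, and that of -0.06 when the medium was added to PA became 0.04 with 75th percentile scaling. A second Il1r2 probe was at 3.08, 3.14, 3.46 and 3.73 in the same order, so it stood 0.59 lower with PA and 0.65 lower with both treatments than in control, where the main probe was 0.24 and 0.30 lower.

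Il1rap encodes the accessory chain that IL-1 and IL-33 receptors share. The probe of NM_008364, the membrane form, was at 8.36 with PA and ADSC medium, 8.02 with PA, 8.00 with ADSC medium and 7.88 in control. The medium went with 0.34 more with PA and 0.12 more without it, both under 1.5-fold. The probe of NM_134103, the soluble form, was at 6.46, 6.46, 6.22 and 6.30 in the same order, and its differences with the medium were -0.01 with PA and -0.08 without it. With PA present the membrane form probe thus differed by 0.34 and the soluble form probe by -0.01, where the SD of a spot difference is 0.079 for the membrane form and 0.123 for the soluble form. A probe of NM_001159318 was well above background on the 3 treated arrays (3.20, 3.15 and 3.34) and not in control, a bound of at least 1.65-fold to at least 1.88-fold where the SD of a spot difference is 0.230 at the treated levels and 0.404 under 3. Another NM_008364 probe was well above background only on the arrays with PA (2.47 and 2.39), and an ENSMUST00000173136 probe on none. The former was at 1.89 with ADSC medium and 2.21 in control. These levels lie at the floor, where the SD of a spot difference is 0.404, so no difference is read from that probe.
Membrane form probe (chromosome 16, 26717189 to 26717248, first 30 of 60 bases): ccagataagttccacataaactttgaatgt
Soluble form probe (chromosome 16, 26701498 to 26701557, first 30 of 60 bases): gatgttgtcaacgcctttgtttctaaatgt

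**Figure D4:**
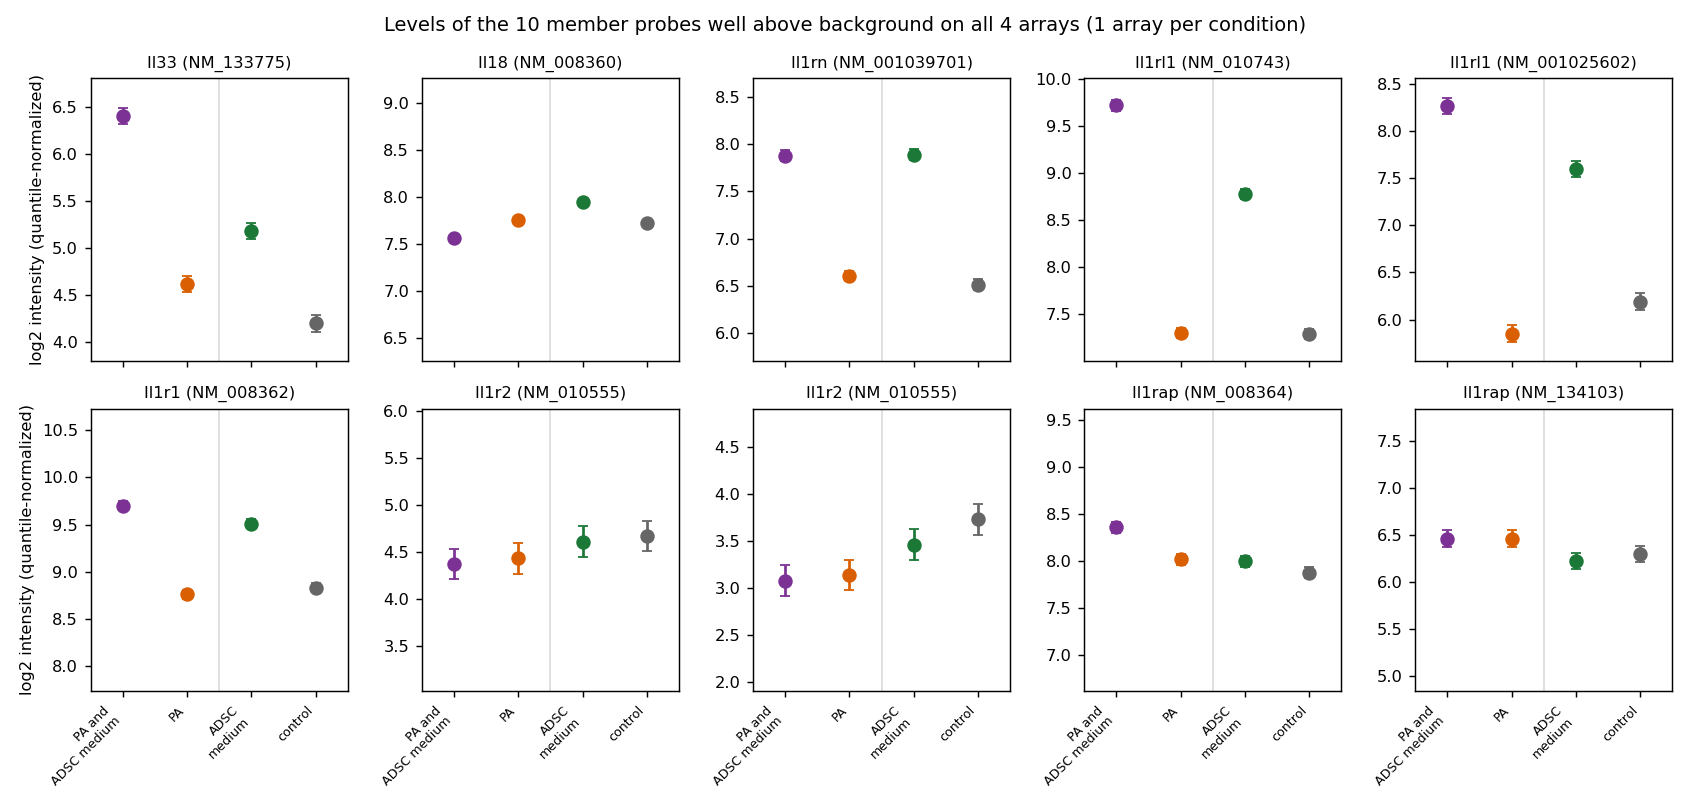
Quantile-normalized log2 intensity (y axis, 3 units tall in each panel) of the 10 member probes well above background on all 4 arrays, by condition (x axis, 1 array each), with the RefSeq transcript of each probe. Lines are 1 SD of a single spot at the probe's mean level, or for Il18 of a mean of 10 spots. Il33, Il1rn, both Il1rl1 probes and Il1r1 are higher on the arrays with ADSC medium, and Il18, Il1r2 and Il1rap vary by less.

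Against control, PA and ADSC medium together had 4 of 7 members past 1.5-fold upward and 0 downward, where 4.63% of 18464 genes were higher and 3.63% lower. Of these, 3 reached 2-fold, as did 1.79% of genes. Il1rl1 was 5.38-fold, Il33 4.62-fold, Il1rn 2.60-fold and Il1r1 1.82-fold higher. With the normexp background the log2 difference of Il33 was 0.90 in place of 2.21, beside 1.0 for Il1rn, 2.11 for Il1rl1 and 0.80 for Il1r1. Against ADSC medium alone, 2 of 7 were past 1.5-fold upward with both treatments and 0 downward, where 3.52% of 18554 genes were higher and 3.12% lower. At 2-fold it was 1, as for 1.26% of genes. These were Il33 (1.22) and Il1rl1 (0.93). These comparisons share arrays with those above, so they are not separate evidence.

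The windows around the start sites of the 3 members with the largest range over the arrays were searched, since they stood higher together with the medium. The windows run from 250 bases before to 50 bases after each start that RefSeq lists on GRCm38.p6, where all 9 members were found. Both strands were searched for TGANTCA (an AP-1 motif, in 7.81% of 32851 windows of the same length), AGATAA (a form of the motif of GATA factors, 11.2%) and the ambiguous NF-kB consensus (8.46%). Other forms of the GATA motif were not searched for and are not marked. Capitals mark a match, and its position is counted from the start site. Il33 has starts at chr19:29924863-29925162 and chr19:29945540-29945839 (plus strand), and no match was found in either window.
Il33 upstream window: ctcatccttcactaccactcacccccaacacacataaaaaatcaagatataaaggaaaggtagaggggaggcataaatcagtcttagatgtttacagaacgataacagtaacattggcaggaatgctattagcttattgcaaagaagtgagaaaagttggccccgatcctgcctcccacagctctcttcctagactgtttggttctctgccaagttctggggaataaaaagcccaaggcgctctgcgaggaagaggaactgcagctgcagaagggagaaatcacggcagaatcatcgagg
Il33 downstream window: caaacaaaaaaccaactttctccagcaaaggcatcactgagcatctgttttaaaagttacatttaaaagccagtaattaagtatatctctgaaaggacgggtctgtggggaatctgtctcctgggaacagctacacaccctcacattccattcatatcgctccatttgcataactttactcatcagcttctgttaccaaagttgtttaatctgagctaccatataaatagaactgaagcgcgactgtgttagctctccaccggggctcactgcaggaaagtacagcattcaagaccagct
Il1rl1 has starts at chr1:40429320-40429619 and chr1:40439379-40439678 (plus strand). Each window holds 1 match to AGATAA, at position -217 in the upstream window and at -103, on the minus strand, in the downstream one.
Il1rl1 upstream window: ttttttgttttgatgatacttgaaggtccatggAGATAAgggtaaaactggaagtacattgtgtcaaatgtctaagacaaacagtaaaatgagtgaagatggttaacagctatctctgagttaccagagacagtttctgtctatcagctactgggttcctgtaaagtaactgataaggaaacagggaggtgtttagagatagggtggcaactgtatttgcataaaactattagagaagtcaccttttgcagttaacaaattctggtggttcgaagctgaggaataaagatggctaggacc
Il1rl1 downstream window: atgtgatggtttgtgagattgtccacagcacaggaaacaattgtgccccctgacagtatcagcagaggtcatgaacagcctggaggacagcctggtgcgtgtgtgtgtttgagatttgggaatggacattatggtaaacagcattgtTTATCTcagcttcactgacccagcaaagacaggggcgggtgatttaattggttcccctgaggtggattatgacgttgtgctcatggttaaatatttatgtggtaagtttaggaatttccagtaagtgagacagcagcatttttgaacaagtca
Il1rn has 3 listed starts on the plus strand. The window at chr2:24336610-24336909 holds an AP-1 match at position -141 and is shown. The other two hold no match to these motifs, but a different NF-kB pattern that was tried first (in 1.63% of all windows) matched 1 site shared by both, at position 29 in one and -51 in the other.
Il1rn upstream window: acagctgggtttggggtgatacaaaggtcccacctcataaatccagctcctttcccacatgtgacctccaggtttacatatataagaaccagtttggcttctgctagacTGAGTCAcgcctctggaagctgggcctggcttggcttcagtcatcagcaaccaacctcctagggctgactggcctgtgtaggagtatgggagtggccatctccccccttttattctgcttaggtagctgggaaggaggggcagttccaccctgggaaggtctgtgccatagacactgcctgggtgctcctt
That pattern matched no other member's window, and an interferon response element tried with it (3.44%) matched that of Il1rap. Among the other members' windows, Il1a held an AP-1 match and the downstream window of Il1r1 an NF-kB match. A match is a description of the letters and not a bound site, and a window without one says nothing about the factor.

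The genes whose 4 levels were most like those of a member were ranked by the distance between profiles centred on their mean, in log2 units over the 4 arrays, among 17354 other genes well above background on all of them. Nearest to Il33 were Gm10634 at a distance of 0.145, Kdm7a at 0.287, Slc6a12 at 0.316, Ptprr at 0.381 and Ptpn22 at 0.409. Kdm7a encodes a histone demethylase and Slc6a12 a betaine transporter. Nearest to Il1rn were Egr2, an immediate early transcription factor, at 0.093, Rnase2a at 0.181, Serpina3c at 0.219, Ccdc3 at 0.243 and the phosphodiesterase gene Pde4b at 0.278. Nearest to Il1rl1 were Spp1 (osteopontin) at 0.330, Cd93 at 0.342, the collagen VI gene Col6a3 at 0.447 and the chemokine gene Ccl8 at 0.547. With 4 arrays a small distance is a description of these arrays.

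Of the other ligands and antagonists of the family, 2 of the 6 listed genes were on the array under their names, and Il1f10 was not well above background. Il18bp encodes a secreted protein that neutralizes IL-18. It was at 8.18 with PA and ADSC medium, 8.46 with PA, 7.09 with ADSC medium and 7.37 in control. It was thus higher by 1.1 with PA, both without and with the medium, and lower by 0.28 with the medium, both with and without PA. Among the 6 other receptor genes, Il18rap, the accessory chain of the IL-18 receptor, was at 6.32 with PA and ADSC medium, 4.47 with PA, 5.89 with ADSC medium and 4.74 in control. It was higher by 1.85 when the medium was added to PA and by 1.14 without PA. The IL-18 receptor gene Il18r1 was well above background only with both treatments. It was at 2.70 there, -0.01 with PA, 2.31 with ADSC medium and 1.05 in control. It was thus higher by at least 0.63 than with PA, 0.40 than with ADSC medium and 0.28 than in control. At such levels the SD of a spot difference is 0.404. Il1rl2, the IL-36 receptor, was well above background on the 3 treated arrays (3.27, 3.35 and 3.10) and not in control. Sigirr, an inhibitory member, differed by at most 0.41, and Il1rapl1 and Il1rapl2 were not well above background on any array.

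For the signalling step below the receptors, all 18 listed genes were well above background on every array. Of these 18, when medium was added to PA, 2 were at least 1.5-fold higher and 0 lower, beside 5.25% and 3.72% of all genes. With the medium without PA 0 were higher and 0 lower (2.3% and 1.28% of all genes), and with PA 0 were higher and 1 lower (2.86% and 3.21%). The medians were 0.06, 0.01 and 0.08. Peli2, a ubiquitin ligase that acts on IRAK proteins, was at 10.41 with PA and ADSC medium, 8.99 with PA, 10.28 with ADSC medium and 9.70 in control, differences with the medium of 1.42 with PA and 0.57 without it. Map3k8, a kinase, was higher by 0.77 when the medium was added to PA. Irak2, Myd88 and Irak3 differed by at most 0.51, 0.41 and 0.41 in any comparison.

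Of 16 genes for processing and release of IL-1 family cytokines, 15 were on the array and 12 were compared. With PA, 3 of 12 were at least 1.5-fold higher and 0 lower, beside 2.86% and 3.21% of all genes. With the medium 0 were higher and 0 lower, either without PA (2.3% and 1.28% of all genes) or with PA (5.25% and 3.72%). At those shares, 0 of 12 does not set this list apart from all genes. Casp4, the inflammatory caspase that senses lipopolysaccharide in the cytosol, was at 10.53 with PA and ADSC medium, 10.12 with PA, 9.60 with ADSC medium and 9.08 in control, 1.04 higher with PA alone. P2rx7, an ATP-gated channel that triggers inflammasome assembly, was 0.82 higher with PA. Casp1, which cuts the IL-1 beta and IL-18 precursors, was at 3.23, 2.89, 3.36 and 2.90 in the same order, and Nlrp3 differed by at most 0.27. The protease gene Prtn3 was 0.59 higher with PA at a level of 3.69, and Ctsg was 0.64 lower with both treatments than in control.

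Genes known to respond to IL-1 in fibroblasts were listed as well, although NF-kB serves other signals too and the list says nothing of which ligand acted. The list was chosen with earlier results of these data known, so its counts beside the shares of all genes are a description and not a test. When the medium was added to PA, 9 of the 20 compared were at least 1.5-fold higher and 0 lower, beside 5.25% and 3.72% of all genes, with a median of 0.49 among those measured on both arrays. With the medium alone 4 of 19 were higher and 1 lower (median 0.22), beside 2.3% and 1.28% of all genes, and with PA alone 4 of 20 were higher and 2 lower (median 0.13), beside 2.86% and 3.21%. PA and ADSC medium had 11 of 20 higher and 2 lower than ADSC medium alone (median 0.74, beside 3.52% and 3.12%), and 12 of 20 higher and 0 lower than control (median 0.88, beside 4.63% and 3.63%). Cxcl5, a neutrophil chemokine, was at 10.42 with PA and ADSC medium, 5.98 with PA, 8.47 with ADSC medium and 6.67 in control. Cxcl1 was at 12.33, 9.79, 10.33 and 9.23 in the same order, and like Il33 and Il1rl1 its difference with the medium was larger with PA (2.54) than without (1.1). Il6 was at 9.01, 8.31, 6.63 and 6.05, with the larger differences between arrays with and without PA. Mmp3, a matrix protease, was at 8.29, 5.73, 10.34 and 8.69, and Mmp13 at 7.83, 6.15, 5.08 and 5.0. In the authors' deposited list of probes higher with PA than in control are 9 of the 27 probes of these genes, those of Ccl20, Csf2, Csf3, Cxcl1, Cxcl2, Il6, Lcn2, Mmp13 and Saa3, and 0 are in their other list. The lists hold 1580 and 920 probes, where the array has 41174. Of those named, Cxcl2 was not well above background on any array, and Csf2 and Csf3 were not in control. Nfkbiz, a nuclear NF-kB cofactor, differed by 1.24 when the medium was added to PA, whereas the feedback gene Tnfaip3 differed by at most 0.11 and Nfkbia by at most 0.50.

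**Figure D5:**
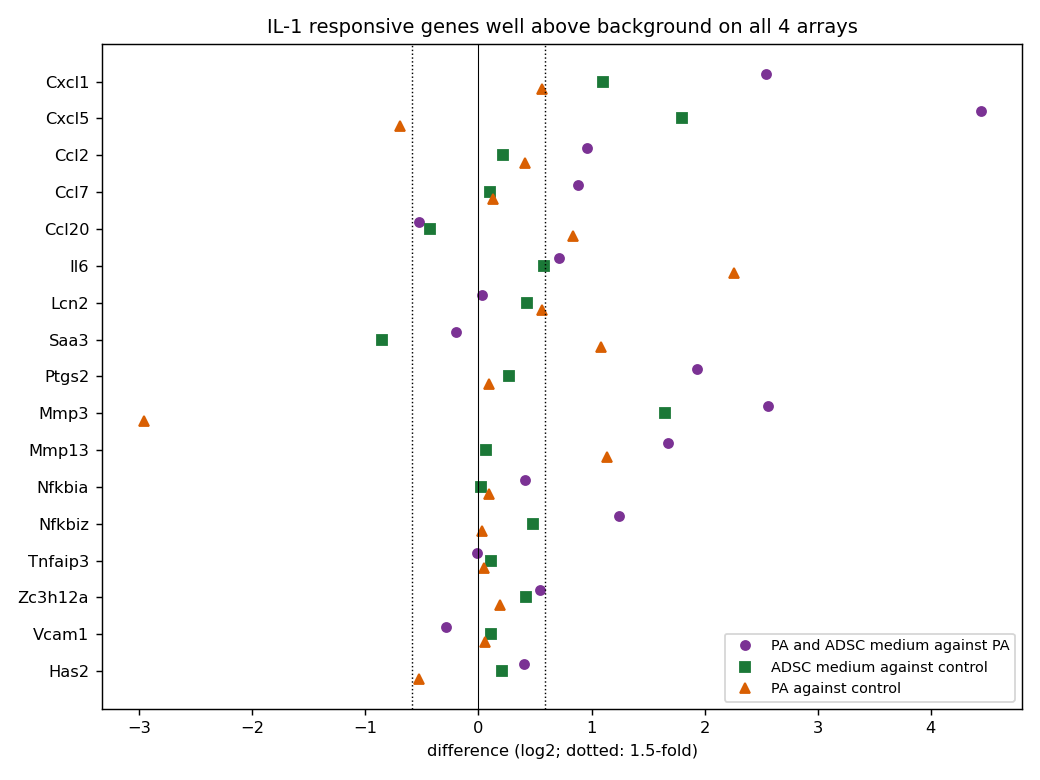
Differences on the log2 scale (x axis) of the 17 IL-1 responsive genes well above background on all 4 arrays (y axis), for PA and ADSC medium against PA (circles), ADSC medium against control (squares) and PA against control (triangles). Dotted lines mark 1.5-fold. Cxcl5, Mmp3 and Cxcl1 have the largest differences when the medium was added to PA, at 4.44, 2.56 and 2.54.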

How the data were processed

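The deposited intensity values are processed signals per spot, per the file headers: the authors' scanner software (Agilent Feature Extraction 12.1.1.1, with protocol GE1_105_Dec08 on design 014868 annotated on mm9) took off background and corrected spatial and multiplicative trends. RNA was labelled with Cy3, per the labels' protocols. The submitters' processing notes name R 3.5.1, and the series' design notes name quantile normalization, which these intensities do not yet carry. The authors also deposited 2 lists of probe names with no threshold given.

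Control and outlier-flagged spots (82 to 104 an array) were left out, and the mean log2 value of each probe's spots was quantile-normalized over the 4 arrays with limma 3.58.1 in R 4.3.3 (data.table, version 1.17.8). Of 41174 probes, 28 without a value on some array were dropped. Symbols came from the RefSeq gene list of GRCm38.p6 for 28680 probes and otherwise from the array. For counts, a gene was taken by its most intense probe if well above background on 1 or both arrays compared. If on 1 only, the lower value was raised to the lowest level of that array flagged above background, unless it was already higher, and the fold is written "at least". With 1 array per group no test was run. The members, the 5 gene lists and the 6 marker lists were chosen with earlier results of these data known. Up to 5 genes with the largest differences were to be named per list, and others named beside them were chosen after their values were seen. The 5 nearest genes were named for each member with a range of at least 2-fold, except 1 that is not reported here. The calculation was tested on simulated data. Alternatives were 75th percentile scaling, normexp background (offset 50), the mean of probes, no filter on dim probes, outlier spots kept and a 2-fold threshold. Python 3.11.15, numpy 2.4.6, pandas 2.3.3 and matplotlib 3.10.9 were used.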

Additional observations from a re-analysis of the deposited data

Results flagged for a closer look

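Of the probes well above background on all 4 arrays, 3 had differences of opposite sign under the same contrast, each larger than 1 SD of a spot difference at the probe's mean level. For Il18 the SD used was that of a difference between means of 10 spots, 0.025. Its difference of 0.03 lies under the 0.079 of single spots. The Il18 probe differed with ADSC medium by -0.19 in the presence of PA and by 0.22 in its absence. The same probe differed with PA by -0.38 in the presence of ADSC medium and by 0.03 in its absence. The transmembrane form probe of Il1rl1 differed with PA by 0.67 in the presence of ADSC medium and by -0.34 in its absence. The Il1r1 probe differed with PA by 0.18 in the presence of ADSC medium and by -0.07 in its absence. The latter is close in size to the probe's SD of 0.067. With 1 array per condition these opposite signs were not tested.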

How the results depend on the processing

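Of 35 differences of the 7 members in the 5 comparisons, 14 reached 1.5-fold. All 14 kept their sign under the 5 other settings of scaling, background, probe choice, dim filter and outlier spots, and 13 stayed past 1.5-fold under each. The exception was Il33 with ADSC medium against control, which was 0.98 and fell to 0.29 with the normexp background. Leaving out the dim filter could not change any of these differences, because the most intense probe of each of the 7 members was well above background on all 4 arrays. Nor could the mean of probes change Il33, Il18 or Il1r1, which have 1 probe each. With normexp 16 of the 35 moved by more than the spread of the spots and with the mean of probes 13, while none did with the 75th percentile scaling, without the dim filter or with outlier spots kept. For Il18 that spread was the one for means of 10 spots. Il33 against control with both treatments was 2.21, or 0.90 with normexp. Il1rn with ADSC medium against control ran from 0.79 to 1.38, and Il1rl1 in PA and ADSC medium against PA from 2.10 to 2.50. The 0.79 and the 2.50 come from the mean of probes, which also averages in lower bounds of dim probes. These bounds were 0.20 for the second Il1rn probe and 2.68 for the shared Il1rl1 probe, so neither mean is a full measurement of the difference. The part of the added offset in the shifts with normexp was not tested. Counted at 2-fold, 2 members were higher with ADSC medium against control in place of 4, and 1 with PA and ADSC medium against ADSC medium in place of 2. Signal over background limits Il1a, Il1b and the dim probes of Il1rn, Il1rl1 and Il1rap. No paired analysis was possible because each condition has 1 array.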

Other observations

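Several receptor genes of the family lie next to each other on mouse chromosome 1, in the order Il1r2, Il1r1, Il1rl2, Il1rl1, Il18r1 and Il18rap in the RefSeq table of GRCm38.p6. Il1rap lies on chromosome 16. Looked at in this order after their values were seen, the difference between PA and ADSC medium and PA alone was -0.06 for Il1r2, 0.93 for Il1r1, -0.08 for Il1rl2, 2.42 for Il1rl1, at least 0.63 for Il18r1 and 1.85 for Il18rap. Without PA, Il1r2 differed by -0.06, Il1r1 by 0.68, Il1rl2 by at least 0.67, Il1rl1 by 1.5 and Il18rap by 1.14, and Il18r1 was not well above background on either array. Of the coding genes on either side, Map4k4 differed by 0.06 with PA and 0.14 without it, Mfsd9 by -0.03 and 0.06, and Rfx8, farther out, by -0.12 and 0.63, while Gm3646 was not found by name and Slc9a4 and Slc9a2 were not well above background.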
